A study of Caenorhabditis elegans with 2 samples.

Results

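The genes described here are 10 genes of the synaptonemal complex and the meiotic chromosome axis, taken from a list of names and found by symbol in the annotation, of 19973 nuclear protein-coding genes in all. They are syp-1, syp-2, syp-3 and syp-4 (central region), him-3, htp-1, htp-2 and htp-3 (axis proteins with a HORMA domain), and rec-8 and coh-3 (kleisin subunits of meiotic cohesin). The readout was chromatin immunoprecipitation and sequencing (ChIP-seq) of SNPC-3.4, the product of T02C12.2 and a worm homologue of a subunit of SNAPc, the complex that directs RNA polymerases to small nuclear RNA genes. Both samples, biological replicates 1 and 2, were whole young adult hermaphrodites of Caenorhabditis elegans strain YL497, a transgenic line in which SNPC-3.4 carries GFP and FLAG at its C terminus, and the precipitation used an antibody to GFP. Their age is given as unknown, and there was no second genotype, treatment or stage, so the comparisons are between genes. Whole animals mix germline and somatic nuclei, so a peak cannot be placed in a tissue, and how the tagged line differs from untagged worms was not measured here.

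The synaptonemal complex is a protein zipper that holds homologous chromosomes together along their length during meiotic prophase. Cohesin and HORMA-domain proteins build an axis along each chromosome, and the SYP proteins bridge the axes of the paired homologues. The structure is needed for crossovers between homologues, and in worms these genes act in the germline.

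A gene was given the nearest summit within 500 bp of its annotated 5' end in the authors' thresholded list of 2101 peaks or, where it had none there, in their pooled list of 30000 candidate regions. The thresholded list is the head of the pooled list ordered by signal, and its lowest peak had a signal of 50.83 at place 2101. Signal is the value that the authors' peak caller gave each region. It has no stated scale, so places in a list are given beside it, with place 1 the highest. Regions were called separately in each replicate, and a replicate region was matched when its summit lay within 250 bp of the pooled summit. Both replicates also feed the pooled list and are not independent of it. The lists hold no read counts, so the depth behind each value is unknown.

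Of the 10 genes, 4 had a thresholded peak: syp-4, rec-8, coh-3 and syp-3. Over all nuclear protein-coding genes the share was 7.04% (95% Wilson interval 6.69 to 7.40%, for counting error only), and over autosomal genes, where all 10 lie, it was 7.99%. The same 4 genes had a summit within 500 bp among the 2101 highest regions of both replicates, against 4.17% of all genes. By role, peaks were found at 2 of 2 cohesin genes, 2 of 4 central region genes and 0 of 4 axis genes. With a share of 7.04% over all genes, a count of 0 in 4 genes does not set the axis genes apart. The median signal of the 4 peaks was 233, against 73.0 over the 1406 genes with a thresholded peak. Placed among all protein-coding genes by the signal of their region, syp-4 was number 20, rec-8 number 22, coh-3 number 57 and syp-3 number 371. Candidate regions, thresholded or not, lay within 500 bp of 9 of the 10 genes, against 37.7% of all genes. No test was made on these counts, since the genes were put together with earlier results of these data known.

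**Figure D1:**
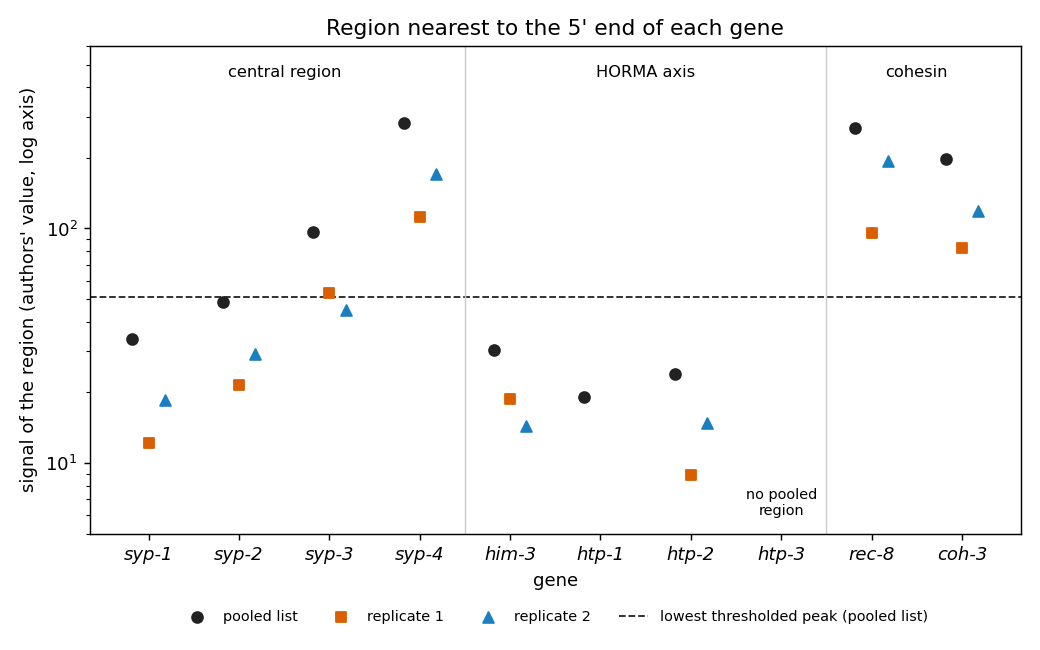
Signal of the region nearest to the 5' end of each gene (log axis) in the pooled list, replicate 1 and replicate 2. The dashed line is the lowest thresholded peak of the pooled list and applies to the pooled values alone. The pooled values of syp-3, syp-4, rec-8 and coh-3 lie above it, that of syp-2 lies just below it, and htp-3 had no pooled region.

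The cohesin genes had peaks among the 125 highest regions of the pooled list and of both replicates. The gene rec-8 (IV, 13349122 to 13353193, minus strand) encodes the meiotic kleisin that holds sister chromatids together. Its signal was 269 in the pooled list at place 65, 95.9 in replicate 1 at place 73 and 193 in replicate 2 at place 55. The mean of its replicates was 145 ± 68.9 (SD, n = 2). The gene coh-3 (V, 14457422 to 14460141, plus strand) encodes a kleisin that acts together with its paralogue COH-4 on the axis. Its signal was 198 at place 109, with 82.3 in replicate 1 at place 92 and 118 in replicate 2 at place 125, and the replicate mean was 100.3 ± 25.5 (SD, n = 2). The lists differed in scale: over 1083 peaks at protein-coding 5' ends that matched in both replicates, the signal of replicate 2 was above that of replicate 1 by a median of 0.78 on the log2 scale (quartiles 0.37 and 1.16). The log2 differences of 1.01 at rec-8 and 0.53 at coh-3 lie within those quartiles, so the SDs above hold a difference of scale as well as of signal.

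The sequences under the cohesin peaks are shown because they carry words in common. These words were already known to be frequent at summits of this study, so their presence is a description only. Each runs 5' to 3' on the strand of its gene and covers 100 bp on both sides of the pooled summit, on ce11 (WBcel235): rec-8 at chrIV:13353348-13353548, coh-3 at chrV:14457181-14457381 and coh-4, the paralogue of coh-3, at chrV:4175712-4175912. Capitals mark AAAGGCGC, seen here as its reverse complement GCGCCTTT, GTACGGTA, and GCGAGACC, seen here as GGTCTCGC.
rec-8: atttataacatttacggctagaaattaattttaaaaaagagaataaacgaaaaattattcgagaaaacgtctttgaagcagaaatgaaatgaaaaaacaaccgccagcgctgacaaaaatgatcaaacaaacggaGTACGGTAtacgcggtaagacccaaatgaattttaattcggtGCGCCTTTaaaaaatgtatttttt
coh-3: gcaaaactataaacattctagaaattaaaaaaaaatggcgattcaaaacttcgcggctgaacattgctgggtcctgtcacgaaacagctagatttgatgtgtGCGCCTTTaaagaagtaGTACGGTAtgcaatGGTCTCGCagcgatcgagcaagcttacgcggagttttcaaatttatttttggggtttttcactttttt
coh-4: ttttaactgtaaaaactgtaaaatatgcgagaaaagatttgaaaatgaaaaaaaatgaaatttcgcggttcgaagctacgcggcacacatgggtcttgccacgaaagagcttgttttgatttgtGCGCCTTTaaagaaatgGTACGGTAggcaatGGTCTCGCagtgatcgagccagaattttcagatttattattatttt

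In coh-3 and coh-4 these words kept the same order, strand and spacing. GTACGGTA began 17 bp and the GCGAGACC match 31 bp downstream of the start of the AAAGGCGC match in both. Aligned end to end, the 201-base windows of coh-3 and coh-4 were identical at 63.6% of alignment columns, and their longest shared run was 17 bases. Against the window of rec-8 the same alignment gave 48.7% for coh-3 and 50% for coh-4, each with a longest shared run of 13 bases. Every 31-base word of the peak regions of coh-3 and coh-4 was unique in the genome. How reads were mapped is not given, so whether reads of these paralogues were kept apart was not tested. In rec-8 the order was the other way round, with GTACGGTA starting 42 bp upstream of the AAAGGCGC match, and no GCGAGACC. The peak of coh-4 had a pooled signal of 191 at place 120, with 84.7 and 107 in replicates 1 and 2, close to the values of coh-3.

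Both cohesin peaks lay between divergently transcribed genes. The summit of rec-8 was 255 bp upstream of its 5' end and 275 bp upstream of that of mex-5, which encodes an RNA-binding protein that polarises the embryo. The summit of coh-3 was 141 bp upstream of its 5' end and 297 bp upstream of that of bmk-1, which encodes a kinesin motor of the spindle. Each peak was thus shared by a gene pair, in which rec-8 and coh-3 had the nearer 5' end. No small RNA gene had its 5' end within 500 bp of either summit.

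Of the central region genes, syp-4 and syp-3 had thresholded peaks, each with a feature that bears on its reading. The gene syp-4 (I, 6847511 to 6849923, plus strand) had the highest signal of the 10 genes, 280.5 at place 63, with 112 in replicate 1 at place 65 and 170.4 in replicate 2 at place 70 (mean 141 ± 41.3, SD, n = 2). Its summit, 168 bp upstream of syp-4, lay only 40 bp upstream of H27M09.6, an snRNA gene on the opposite strand (I, 6847137 to 6847303). Near its start H27M09.6 holds the stretch with which U1 snRNA pairs with 5' splice sites, as do 12 of 129 annotated snRNA genes, itself included. The unclassified RNA gene H27M09.7 lies over it on the other strand. The protein-coding gene H27M09.5 also had its 5' end within 500 bp of the summit, at 384 bp. This was the one peak among the 10 genes shared with a small RNA gene. Without peaks at small RNA genes, 3 of the 10 genes had a thresholded peak, against 6.45% of all genes. How much of the signal belongs to syp-4 and how much to the snRNA gene cannot be told apart.

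The gene syp-3 (I, 8663045 to 8664445, minus strand) had a pooled signal of 96.7 at place 552. Unlike at the other 3 genes, its signal was higher in replicate 1, 52.9 at place 264, than in replicate 2, 44.8 at place 1126 (mean 48.8 ± 5.69, SD, n = 2). The log2 difference of replicate 2 from replicate 1 was -0.24, below the lower quartile of 0.37 given above. The summits of the replicates also lay farther apart than at the other 3 genes, by 89 bp, against 44 bp at rec-8, 8 bp at syp-4 and 4 bp at coh-3. Repeated sequence lay under this peak: 53.3% of the 31-base words of its region were unique, and the most repeated had 71 copies in the genome. The GC content within 100 bp of its summit was 58.2%, against a median of 39.8% (quartiles 35.3 and 44.8%) over 2075 nuclear thresholded summits. The part of the repeat in the peak was not tested. The summit was 117 bp upstream of syp-3 and 414 bp upstream of F39H2.3.

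The other central region genes had weaker regions, with summits inside the gene rather than upstream. The gene syp-2 (V, 5536487 to 5537717, plus strand) had a signal of 48.4 at place 2309, just under the last thresholded peak. The replicates had 21.5 at place 2154 and 29.2 at place 2599, both outside the 2101 highest regions of their lists. Its summit was 184 bp downstream of the 5' end, and cox-16, a cytochrome oxidase assembly gene, began 428 bp from it on the other strand. The gene syp-1 (V, 16404274 to 16407701, plus strand) had 33.9 at place 5285, with 12.2 and 18.6 in replicates 1 and 2. Its summit was 126 bp downstream of the 5' end, where the annotation also runs F13A7.14 across on the same strand. All 31-base words of the regions of syp-1 and syp-2 were unique.

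In the pooled list, the regions of the axis genes had lower signals than those of the central region and cohesin genes. In replicate 1 him-3 stood above syp-1. The gene him-3 (IV, 6977508 to 6978765), whose product forms part of the axis, had a pooled signal of 30.5 at place 7175, with 18.8 in replicate 1 at place 3136 and 14.4 in replicate 2 at place 16624. Its summit, 230 bp upstream, lay 40 bp inside pgl-1, a germ granule gene on the opposite strand, and the region is also the one of pgl-1. The gene htp-2 (IV, 6419522 to 6420898) had 24.1 at place 14722, with 8.87 and 14.8 in the replicates, and its summit was nearer to the divergent gene Y73B6BL.23 (150 bp) than to htp-2 (291 bp). The gene htp-1 (IV, 5390189 to 5391557) had only a region of signal 19.1 at place 27452, with its summit 490 bp inside the gene and no matched region in either replicate. The lowest signal in the pooled list was 18.3, so this region lay near its end. At the 3' end of htp-1, 1368 bp from the 5' end, the pooled list had a region of signal 27.2 at place 10142, and replicate 2 had one of 27.7 at place 2882, while replicate 1 had none over the gene. At htp-3 (I, 4827072 to 4829791), whose product is needed to load the other HORMA proteins, the nearest pooled summit was 1314 bp inside the gene (signal 21.4). Replicate 2 had a region 349 bp upstream of htp-3, of signal 13.1 at place 20980. Replicate 1 had 3 regions over htp-3, the highest 1440 bp inside the gene with a signal of 16.9 at place 4286.

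The genes htp-1 and htp-2 are near copies, identical at 88.4% of alignment columns over their whole length. Of the 31-base words from 250 bp upstream to 100 bp downstream of the 5' end, 100% were unique at htp-1 and 98.8% at htp-2. Over the htp-1 region inside the gene the share was 83.0%. The summits of both genes lay outside the window from 250 bp upstream to 100 bp downstream, and the part of shared sequence in their values was not tested.

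**Figure D2:**
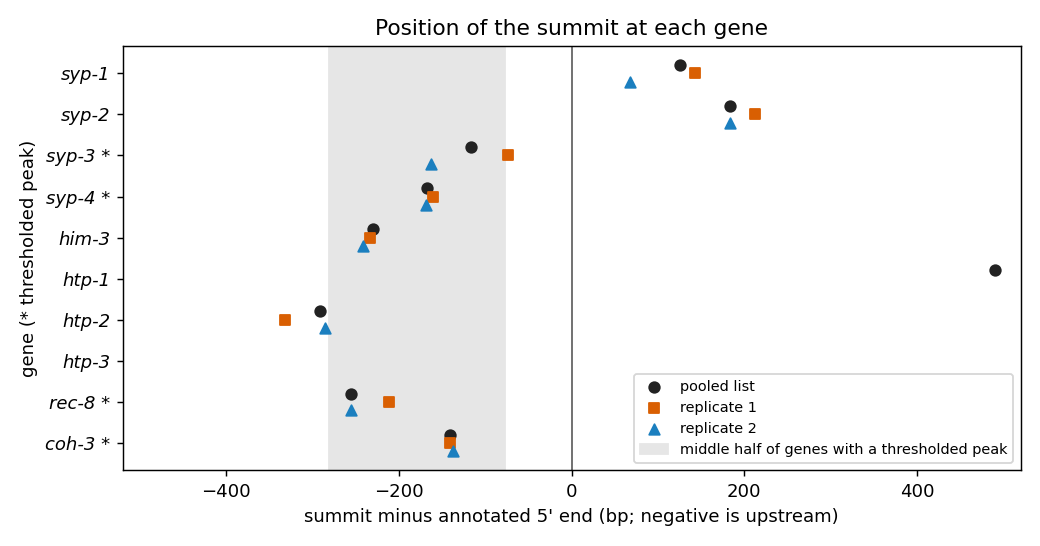
Position of the summit relative to the annotated 5' end of each gene (bp, negative is upstream) in the pooled list and in each replicate. The shaded band spans the quartiles of all 1406 genes with a thresholded peak, and stars mark the 4 genes with one. Those 4 summits lie upstream, those of syp-1, syp-2 and htp-1 downstream.

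All 4 thresholded summits lay upstream of the gene, by 117 to 255 bp. Over the 1406 genes with a thresholded peak the median was 174 bp upstream, with quartiles at 77 and 281 bp, so all 4 lay within the usual range. Worm mRNAs are often trans-spliced, which makes annotated 5' ends inexact. All 4 also had a divergent protein-coding gene, on the opposite strand, that began less than 500 bp from the summit, and 43.0% of the 1406 did too.

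Weaker regions of 3 genes held AAAGGCGC as well. These are shown for 60 bp on both sides of the summit on the strand of the gene, with the word in capitals on either strand: syp-2 at chrV:5536611-5536731, htp-2 at chrIV:6419171-6419291 and him-3 at chrIV:6977218-6977338.
syp-2: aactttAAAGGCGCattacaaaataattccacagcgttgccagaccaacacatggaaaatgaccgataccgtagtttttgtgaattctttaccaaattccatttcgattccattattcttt
htp-2: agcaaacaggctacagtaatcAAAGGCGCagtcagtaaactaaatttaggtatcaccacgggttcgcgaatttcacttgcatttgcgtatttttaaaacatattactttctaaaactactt
him-3: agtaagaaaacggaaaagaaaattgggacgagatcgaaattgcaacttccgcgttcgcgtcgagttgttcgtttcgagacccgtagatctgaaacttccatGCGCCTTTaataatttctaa

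A set of 8 words was searched on both strands within 100 bp of the summits of the 9 genes with a region. AAAGGCGC was held by 5 of 9 (syp-2, htp-2, him-3, rec-8 and coh-3). At thresholded peaks alone it was held by 2 of 4 (rec-8 and coh-3). The shares were 7.81% of nuclear thresholded summits, 10.3% of the 1095 thresholded peaks at protein-coding 5' ends and 1.61% of 27899 nuclear candidates below the threshold. The regions of syp-2, htp-2 and him-3 were below the threshold, and the 27899 candidates include those far from any gene. Within 50 bp the count was 3 of 9, and 1 of 4 at thresholded peaks, against 5.59%, 7.76% and 0.907% of the same 3 sets. GTACGGTA was held by 2 of 9 (rec-8 and coh-3), against 4.05%, 6.12% and 0.778% of the same 3 sets. GCGAGACC was held by coh-3 alone, against 7.42%, 10.3% and 0.964%. A TATAAA word was held by rec-8 and coh-3 but more than 80 bp from the summit, and 17.98% of thresholded summits held one. AAACGCGC, CTGTTTCA (the word upstream of piRNA genes), TTTCGCGC and TTTNNCGC (which also matches every TTTCGCGC) were in none of the 9, against 4.53%, 0.723%, 4.58% and 24.7% of thresholded summits. AAAGGCGC, AAACGCGC, GCGAGACC and GTACGGTA were already known to be frequent at summits of this study. Their presence at any of the 9 genes is thus a description and no separate support.

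In promoters, taken from 400 bp upstream to 100 bp downstream of the 5' end whether or not a region was near, AAAGGCGC was held by 4 of the 10 genes (htp-2, him-3, rec-8 and coh-3) and 2.87% of all protein-coding genes. GTACGGTA was held by syp-4, rec-8 and coh-3 and 1.96% of all genes, and GCGAGACC by htp-1 and coh-3 and 2.25%. Since AAAGGCGC was already known to be frequent at summits of this study, its shares with a peak are a description and no separate support. Of all 573 genes with AAAGGCGC in this window 155, or 27.1%, had a thresholded peak, as against 6.45% of those without it. The word thus did not come with a thresholded peak at every gene: htp-2 and him-3 held it and had none, and syp-3 and syp-4, the latter with the highest signal of the 10 genes, had peaks and no such word.

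Peaks were also found at other genes of the synaptonemal complex, axis and cohesin. Of 14 such genes matched in the annotation, 7 had a thresholded peak, against 7.04% of all genes, with a median signal of 145. The paralogues syp-5 and syp-6, also of the central region, had 226 at place 81 and 192 at place 119. In replicates 1 and 2, syp-5 had 86.9 and 142, and syp-6 had 90.2 and 101. With coh-4 at 191, this put 4 of 6 SYP genes and 3 of 3 meiotic kleisin genes in the thresholded list. AAAGGCGC lay within 100 bp of the summit at 3 of these 7 peaks, those of syp-5, syp-6 and coh-4. The shares were 7.81% of nuclear thresholded summits and 10.3% of thresholded peaks at protein-coding 5' ends. The peaks of wapl-1, evl-14, scc-1 and scc-3 did not hold it. No small RNA gene began within 500 bp of the summits of syp-5, syp-6 and coh-4. The mei-2 gene, of a meiotic spindle severing complex, faced syp-6, and pid-5 faced coh-4. The coh-4 summit lay 70 bp from the 5' end of pid-5 and 172 bp from that of coh-4, so pid-5 was the nearer.

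Thresholded peaks were found at 4 cohesin genes that also serve mitosis, with signals from 66.4 to 145. The cohesin release factor wapl-1 had 145, evl-14, the worm PDS5, 108, the kleisin scc-1 67.0 and the subunit scc-3 66.4. The peak of scc-1 lay 16 bp inside rpn-5, a proteasome gene on the other strand, and is shared with it. The summits of wapl-1 and scc-3 were also within 500 bp of htz-1 and abcf-1. No thresholded peak was found at him-1 and smc-3, which encode the SMC subunits, the kleisin coh-1 on X, the loader gene mau-2, lab-1, which acts on the long arm of the bivalent, or the Skp1 genes skr-1 and skr-2. Of these, lab-1 had a pooled signal of 37.6, him-1 34.1, coh-1 33.9, skr-2 20.4 and smc-3 19.1. The genes mau-2 and skr-1 had no region.

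**Figure D3:**
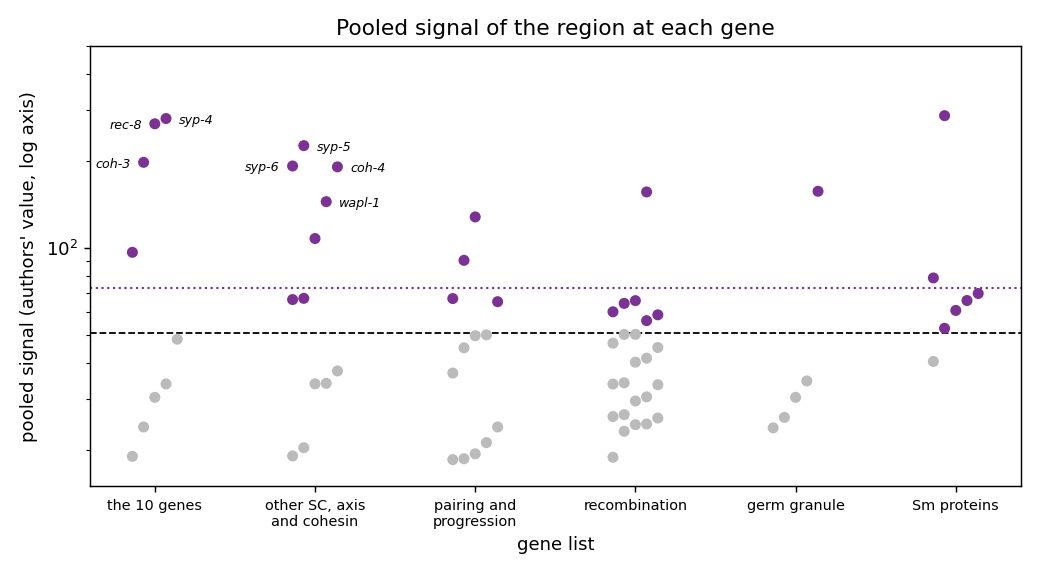
Pooled signal (log axis) of the region at each gene of 6 lists, with one point per gene that had a region. Purple points are thresholded peaks and grey points are not, the dashed line is the lowest thresholded signal, and the dotted line is the median of 73.0 over all protein-coding genes with a thresholded peak. The points for syp-4, rec-8, coh-3, syp-5, syp-6 and coh-4 lie between 191 and 280.5.

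Some genes of other meiotic steps had peaks as well. For pairing and meiotic progression 4 of 14 genes had one, against 7.04% of all genes, with a median signal of 78.8: the polo kinase gene plk-1 (128), prom-1 (90.7), which acts in meiotic entry, the nuclear envelope protein gene zyg-12 (66.9) and him-19 (65.3). The other 10 had none: the pairing centre zinc-finger genes him-8, zim-1, zim-2 and zim-3, the kinase genes chk-2 and plk-2, the nuclear envelope gene sun-1, and pch-2, cra-1 and gras-1. For recombination 6 of 31 genes had one, against the same 7.04%, with a median of 62.3: the RING-finger genes zhp-2 (156) and zhp-3 (65.8), then rec-1 (64.4) and dsb-2 (60.2), which act in double-strand break formation, and the repair genes rad-54.L (58.8) and exo-1 (56.1). At zhp-2 the replicates had 57.9 and 91.4, while rad-54.L had only 11.4 in replicate 1 at place 14129 and exo-1 no matched region there. In the 2101 highest regions of both replicates, 3 of the 31 recombination genes had a summit (zhp-2, zhp-3 and dsb-2), against 7 of the 14 cohesin and synaptonemal complex genes above and 4.17% of all genes.

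In other parts of the series taken for comparison, germ granule genes had 1 thresholded peak in 7, at glh-2 (157), a helicase gene. The share of all genes was 7.04%. The others, glh-1, glh-3, glh-4, pgl-1, pgl-2 and pgl-3, had none. Sm protein genes, which encode the core proteins of spliceosomal snRNPs, had 6 in 7, against the same share, at snr-4 (287), snr-1 (78.9), snr-6 (69.7), snr-3 (65.9), snr-2 (60.9) and snr-7 (52.8), and snr-5 had none. The median signal of the thresholded Sm genes was 67.8, against 233 at the 4 genes above. Over every gene with a region, thresholded or not, the median was 65.9 for Sm genes, 48.4 for the genes described here and 27.4 for all nuclear protein-coding genes. Of 7 Sm genes, 2 had a summit among the highest regions of both replicates, against 4 of 10 here and 4.17% of all genes. Without peaks at small RNA genes, 5 of 7 Sm genes had a thresholded peak, against 3 of 10 here and 6.45% of all genes. The differences between lists were not tested.

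**Figure D4:**
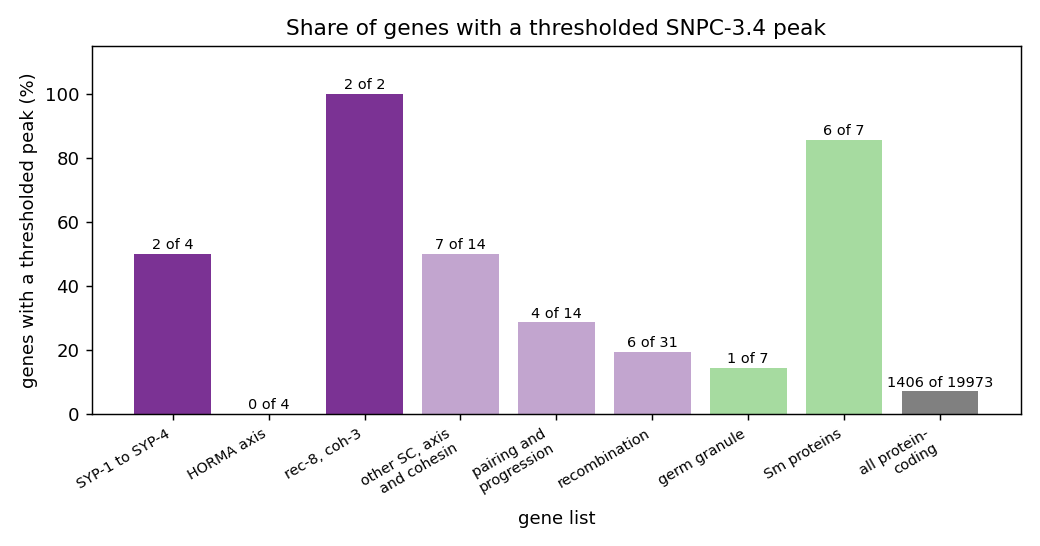
Share of genes with a thresholded SNPC-3.4 peak within 500 bp of the 5' end (percent), with counts above the bars, for the 3 roles among the 10 genes, other meiotic lists, 2 comparison lists and all nuclear protein-coding genes. The HORMA axis genes are at 0 of 4 and all genes at 1406 of 19973.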

How the data were processed

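The authors deposited peak lists from ChIP-seq of both replicates, fragmented by sonication per the labels. The ce11 lists were used: the lists of candidates, 30000 each for replicate 1, replicate 2 and both together, and the optimal set thresholded by irreproducible discovery rate, each called with a control per the deposited notes. Regions were described and ordered by the deposited signal value as it stands. Not given in the sources used here are the caller, the aligner and the mapping filters. The deposited score, which falls below 0 in the candidate lists, was not used in a result. The summit is the region start plus the deposited offset, 1-based.

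Genes came from Ensembl release 115 on WBcel235, which is ce11, and sequence from the RefSeq genome of that build. The ce10 lists were not used, and no coordinate was converted. Of 84 listed symbols 83 matched. The other, pqn-85, is an older symbol of the cohesin loader gene scc-2, which is in the annotation under that name but is not counted in the list of 14. Summits and words were given as counts or shares with no test, since both samples are of 1 group. Replicates are named biological by the labels. Paralogues were aligned globally with match 1, mismatch -1, gap opening -3 and gap extension -1. The interval of a share is a 95% Wilson interval over genes.

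The members, lists and words were chosen with earlier results of these data known. All 10 members are named with their values, from the other lists every gene with a thresholded peak, at most 8 per list, and those without one in lists of up to 15, and every gene with a 5' end within 500 bp of a member summit. The assignment of summits and the word search were tested on simulated data. Biopython 1.88, SciPy 1.17.1, pandas 2.3.3, NumPy 2.4.6 and matplotlib 3.10.9 were used under Python 3.11.15.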

Additional observations from a re-analysis of the deposited data

How the results depend on the processing

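Of the 4 genes with a thresholded peak, 3 had one within 250 bp, 3 had one when peaks at small RNA genes were left out, and 4 had one among the peaks above the median signal of the list. With single replicates the count was 4 and 4. It moved to 9 with all candidate regions of the pooled list and to 2 where the 5' end had to lie inside the peak region. The settings added after seeing the data, the highest signal in the window and the nearest 5' end of any gene, gave 4 and 3. The count in both replicates was 8 with all candidate regions. No share over all genes was taken under that rule, so nothing is drawn from this count. Over all protein-coding genes the share of 7.04% was 4.50% at 250 bp, 9.27% at 1000 bp, 3.64% with the peaks above the median signal, 37.7% with all candidates, 2.53% with the 5' end inside the region, 7.43% with any transcript's 5' end and 6.45% without peaks at small RNA genes. It was 7.99% on autosomes, also added after seeing the data, and 6.19 to 7.01% with 1 replicate left out. At 250 bp the recombination list fell to 3 genes and the Sm list to 3. These move with the windows and thresholds by construction. No paired analysis was possible because both samples are of 1 group. Depth is unknown, so a region missing from a list of 30000 is not shown to lack SNPC-3.4.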
